A study of Mus musculus with 19 samples.

Results

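The 9 genes described here, Mbp, Mag, Mog, Mobp, Cnp, Cldn11, Ermn, Aspa and Opalin, encode proteins of myelin and of the oligodendrocytes that make it. They were taken by symbol from the gene-level count table, in which 20655 mouse gene IDs were listed. All 9 were found, and all 9 were among the 18204 genes that passed the filter on low counts and entered the tests. They were measured by bulk RNA sequencing of the left hippocampus of 19 mice, 1 library per animal, at 4 months of age. Every animal was hemizygous for the 5xFAD transgenes (5xFADHEMI in the labels), which express mutant human amyloid precursor protein and presenilin in neurons from the Thy1 promoter. The control groups were 5 females (title numbers 1 to 5) and 5 males (6 to 10) with these transgenes alone. The other groups were 4 females (1, 2, 4 and 5) and 5 males (6 to 10) that were also homozygous for the clusterin allele named CLUh2kbKIHO, called knock-in here. Animals without the 5xFAD transgenes are not analysed here, so no value below is a comparison with a healthy hippocampus. The 2 genotypes were numbered in separate ranges, for animals and for libraries, so genotype and cohort cannot be told apart. The comparison asks which transcripts differ with the clusterin knock-in in mice with amyloid pathology. In bulk tissue, fewer oligodendrocytes and less RNA per oligodendrocyte cannot be told apart.

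Oligodendrocytes wrap axons in a compacted membrane that speeds conduction, and each cell serves many axons. Within the sheath, myelin basic protein (Mbp) and Mobp hold the cytoplasmic faces of the membrane together, Cldn11 forms the tight junctions between its layers, Mag faces the axon and Mog sits on the outermost surface. Cnp, a phosphodiesterase, keeps cytoplasmic channels open in the sheath, Ermn is an actin-binding protein of mature cells, Aspa cleaves N-acetylaspartate, and Opalin is a membrane glycoprotein of late differentiation. Their transcription rises as precursors stop dividing and mature, under Sox10, Olig and Myrf factors. In the hippocampus, myelin is concentrated in the alveus and fimbria and in the fibre layers, so white matter is a small part of the dissected tissue.

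RefSeq promoter windows, on build GRCm38.p6, were matched by symbol for 8 of the 9 genes, with 10 windows in all because Mag has 3. The authors' files name the build mm39, so these coordinates belong to the RefSeq table alone. The 250 bases before the annotated start of 4 of the genes are shown as a description. A link between motifs and the variation between animals described below was not tested. The 4 genes were chosen to show windows with many, 1 or no matches to the Sox motifs. Each window is written 5′ to 3′ on the strand of its gene, with matches in capitals. In Mobp and Opalin the capitals mark ACAAAG or its reverse complement CTTTGT, letters bound by Sox factors, and in Ermn they mark ACAAT, another Sox motif. Cldn11 held none of the motifs searched.
Mobp, chr9:120149492-120149741, plus strand: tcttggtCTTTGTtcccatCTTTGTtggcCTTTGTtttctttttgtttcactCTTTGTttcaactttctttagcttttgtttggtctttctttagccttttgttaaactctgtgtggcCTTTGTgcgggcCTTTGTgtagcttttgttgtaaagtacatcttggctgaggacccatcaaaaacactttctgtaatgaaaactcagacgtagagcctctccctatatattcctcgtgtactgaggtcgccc
Opalin, chr19:41077114-41077363, minus strand: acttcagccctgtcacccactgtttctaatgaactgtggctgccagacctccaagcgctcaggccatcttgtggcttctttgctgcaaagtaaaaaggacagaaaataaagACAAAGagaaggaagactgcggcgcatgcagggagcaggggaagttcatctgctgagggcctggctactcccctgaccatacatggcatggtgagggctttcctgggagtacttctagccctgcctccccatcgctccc
Ermn, chr2:58052865-58053114, minus strand: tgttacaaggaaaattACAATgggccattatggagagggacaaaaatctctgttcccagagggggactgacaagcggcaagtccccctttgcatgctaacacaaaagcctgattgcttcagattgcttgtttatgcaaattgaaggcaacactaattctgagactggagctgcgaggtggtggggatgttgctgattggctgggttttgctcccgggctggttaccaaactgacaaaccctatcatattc
Cldn11, chr3:31149670-31149919, plus strand: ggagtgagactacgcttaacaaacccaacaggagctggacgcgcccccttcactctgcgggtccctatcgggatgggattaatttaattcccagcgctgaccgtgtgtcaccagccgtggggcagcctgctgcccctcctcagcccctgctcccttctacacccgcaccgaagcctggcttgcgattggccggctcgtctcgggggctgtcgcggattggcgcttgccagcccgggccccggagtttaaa
The Mobp window held ACAAAG 6 times, each on the strand opposite to the gene and each more than 100 bases before the start. ACAAAG stood in 5 of the 10 windows, from 4 of the 8 genes (Mag, Mobp, Cnp and Opalin). Of the 32851 windows of the table, 16.5% held it in the same 250 bases. ACAAT was in 2 of 10 windows (Ermn and Aspa), with 27.7% of all windows. The Myrf motif CTGGNAC was in 4 of 10 windows, from 3 of 8 genes (Mag, Cnp and Mog), with 16.1% of all windows. Overlapping windows of Mag share sites, so they are not separate. CAGCTG, an E-box read by Olig factors, and TATAAA, the TATA box, were each found in Aspa alone, with 13.0% and 12.4% of all windows. Motifs were searched as exact letters on both strands, and ACAAAG and ACAAT can share bases. None of the 5 motifs was found in all 8 genes. A match describes letters only.

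The genes lie on separate chromosomes apart from Cnp and Aspa, which are both on chromosome 11. Mbp (ENSMUSG00000041607) is on chromosome 18, Mag (ENSMUSG00000036634) on 7, Mog (ENSMUSG00000076439) on 17, Mobp (ENSMUSG00000032517) on 9, Cldn11 (ENSMUSG00000037625) on 3, Ermn (ENSMUSG00000026830) on 2 and Opalin (ENSMUSG00000050121) on 19. Cnp has the identifier ENSMUSG00000006782 and Aspa ENSMUSG00000020774.

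All 9 transcripts were present in every library, at very unequal levels. In CPM, which is a count scaled to library size with TMM factors, Mbp was the 21st most abundant of all genes tested, at 2373 ± 491 CPM (SD, n = 19), and Mobp was at rank 125 with 769 ± 161 CPM (SD, n = 19). Aspa was the least abundant, at 15.7 ± 4.16 CPM (SD, n = 19), and Opalin was next, at 24.6 ± 6.04 CPM (SD, n = 19). The smallest estimated count of any of the 9 in any library was 174, for Aspa, where counting error alone gives a coefficient of variation of 7.58%. Its coefficient of variation over animals was 26.6%, larger than counting error. For Mbp the lowest count was 27036, counting error was 0.608% and the spread between animals was 20.7%.

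Levels of different genes were compared per kilobase of merged exons (GENCODE M21). On that scale the mean was 280 CPM per kilobase for Mbp, 112 for Mobp, 83.8 for Cldn11, 83.4 for Cnp, 38.4 for Mag, 31.3 for Mog, 18.8 for Ermn, 8.33 for Opalin and 2.63 for Aspa. Mbp and Mobp, the adhesive proteins of compact myelin, headed the order in 19 of 19 libraries. Cldn11 and Cnp were not separated, since Cldn11 was the higher in only 10 of 19 libraries. With the longest coding transcript as the length, Cnp was above Cldn11 in every library. Mag was above Mog in 16 of 19 libraries by merged exons and in 19 of 19 by the longest transcript. The remaining neighbours kept their order in all 19 libraries by merged exons. By the longest transcript, Ermn above Opalin and Opalin above Aspa each held in 18 of 19.

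**Figure D1:**
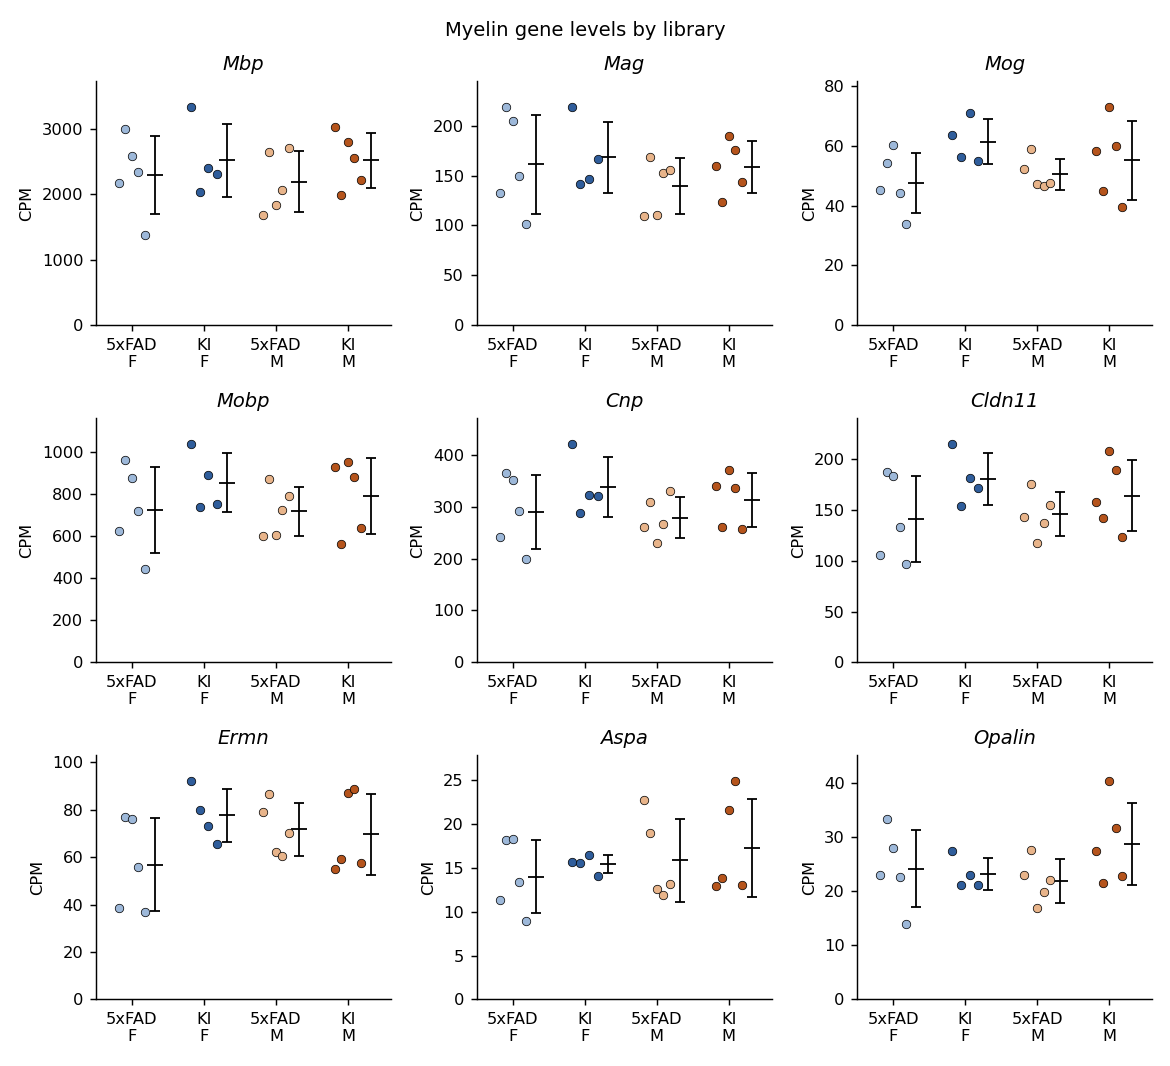
Level of each of the 9 genes in CPM on the vertical axis, 1 point per animal, in 5xFAD (light) and knock-in (dark) females (F) and males (M), with group mean ± SD beside the points. The groups overlap in every panel, and the lowest point of each panel, 5xFAD female 5, belongs to the 5xFAD females.

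Mbp, which encodes the main cytoplasmic adhesion protein of myelin, stood at 2164, 2990, 2587, 2346 and 1380 CPM in 5xFAD females 1 to 5. It stood at 3329, 2040, 2397 and 2301 CPM in knock-in females 1, 2, 4 and 5. In males 6 to 10 it was at 1689, 2649, 1838, 2071 and 2712 CPM in 5xFAD and at 3026, 1983, 2803, 2559 and 2223 CPM in knock-in animals. The genotypes overlapped in each sex, with the lowest value in a 5xFAD female and the highest in a knock-in female. Mobp, the other adhesion protein, ranged from 444 to 965 CPM in 5xFAD females, from 737 to 1038 in knock-in females, from 600 to 871 in 5xFAD males and from 561 to 953 in knock-in males. Cnp ranged from 199 to 366 and from 289 to 421 CPM in 5xFAD and knock-in females, and from 231 to 330 and from 256 to 372 CPM in the males. In all of these the knock-in range began higher than the 5xFAD range in females, and in males it ended higher.

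Mog, the outermost myelin protein and a target of demyelinating antibodies, was at 45.4, 54.2, 60.4, 44.3 and 33.8 CPM in 5xFAD females 1 to 5 and at 63.7, 56.2, 71.1 and 54.8 CPM in knock-in females 1, 2, 4 and 5. It was at 52.2, 59.0, 47.4, 46.5 and 47.6 CPM in 5xFAD males and at 58.4, 45.0, 73.0, 60.1 and 39.6 CPM in knock-in males 6 to 10. Only 5xFAD female 3 lay within the range of the knock-in females, while knock-in males lay on both sides of the 5xFAD males. Cldn11, the tight-junction claudin of the sheath, was at 106, 187, 183, 133 and 97.1 CPM in 5xFAD females and at 215, 154, 181 and 171 CPM in knock-in females. In males it was at 143, 176, 118, 137 and 155 CPM in 5xFAD and at 158, 143, 208, 189 and 123 CPM in knock-in animals. The 5xFAD females fell into 2 high (2 and 3) and 3 low animals for this gene, and the knock-in females lay above the 3 low animals. Mag, the adhesion protein of the innermost layer, ranged from 101 to 218 CPM in 5xFAD females, 141 to 219 in knock-in females, 109 to 169 in 5xFAD males and 124 to 190 in knock-in males.

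Ermn, the actin-binding protein, was at 38.5, 77.1, 76.2, 55.8 and 36.7 CPM in 5xFAD females 1 to 5 and at 91.9, 79.8, 73.2 and 65.5 CPM in knock-in females. It was at 78.9, 86.6, 62.2, 60.7 and 70.0 CPM in 5xFAD males and at 54.8, 59.3, 87.1, 88.9 and 57.6 CPM in knock-in males. Knock-in females were on the high side of the females, while 3 of 5 knock-in males lay below every 5xFAD male and the other 2 lay above every 5xFAD male. Opalin, the glycoprotein of late differentiation, was at 23.0, 33.3, 27.9, 22.6 and 13.9 CPM in 5xFAD females and at 27.4, 21.2, 23.0 and 21.1 CPM in knock-in females. In males it was at 22.9, 27.6, 16.9, 19.8 and 22.1 CPM in 5xFAD and at 27.4, 21.5, 40.2, 31.6 and 22.9 CPM in knock-in animals. Here the knock-in females lay inside the range of the 5xFAD females, and the 2 highest males were knock-in animals. Aspa, the acylase whose loss causes Canavan disease, was at 11.3, 18.1, 18.2, 13.4 and 8.88 CPM in 5xFAD females and at 15.6, 15.6, 16.5 and 14.1 CPM in knock-in females. It was at 22.7, 18.9, 12.6, 11.9 and 13.2 CPM in 5xFAD males and at 13.0, 13.9, 21.6, 24.8 and 13.1 CPM in knock-in males. Each male group held 2 high and 3 low animals for Aspa, and the knock-in females were close together.

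Single animals stood out in the same way for many of the genes. The library of 5xFAD female 5 was the lowest of 19 for 9 of 9 genes. Knock-in female 1 was the highest for 6 genes (Mbp, Mag, Mobp, Cnp, Cldn11 and Ermn), knock-in male 8 for Mog and Opalin, and knock-in male 9 for Aspa. From the lowest to the highest library the levels differed by 2.12 times for Cnp, 2.41 times for Mbp, 2.80 times for Aspa and 2.89 times for Opalin. The 4 groups accounted for between 9.20% (Aspa) and 26.6% (Ermn) of the variance of log2 CPM over libraries. Most of the variation in these transcripts therefore lay between animals of the same genotype and sex. Means of 4 groups take up some variance even where the groups do not differ, and that part was not subtracted.

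Across animals the 9 transcripts rose and fell together. Over the 36 pairs of genes, after removing group means from log2 CPM, Pearson r over 19 libraries had a median of 0.833 and ranged from 0.389 (Mbp and Aspa) to 0.949 (Mobp and Cnp). Benjamini-Hochberg adjusted permutation p values over the 36 pairs were under 0.05 for 35 pairs by Pearson r and for 34 by Spearman rho. Mobp and Cnp had a rho of 0.963 (permutation p = 3e-05 for r, adjusted p = 0.000108), and r was 0.937 without the 2 libraries farthest from the median of Mobp. The exception, Mbp and Aspa, had a rho of 0.346 (permutation p = 0.144 for r, adjusted p = 0.144), and r was 0.236 without the 2 libraries farthest from the median of Mbp. All values in a library share its depth and scaling factor, and the lowest r was 0.414 when libraries were scaled by their totals alone.

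Within this shared variation, Aspa and Ermn stood apart from Mbp and Mag. A first principal component of the 9 genes held 82.6% of the variance, with loadings of 1 sign from 0.281 (Aspa) to 0.357 (Cldn11). The second held 10.8% and set Aspa (0.631) and Ermn (0.362) against Mbp (-0.475) and Mag (-0.302). Accordingly Ermn and Aspa, which encode a cytoskeletal protein and an enzyme, had an r of 0.895 (rho 0.882, permutation p = 3e-05 for r, adjusted p = 0.000108). Their r with Mbp was lower, at 0.597 for Ermn and 0.389 for Aspa. Against the mean of the other 8 genes, Cldn11 (0.964), Opalin (0.952) and Cnp (0.944) were the closest and Aspa (0.720) and Mbp (0.814) the farthest. On the values that the authors normalized by gene and library, Mbp and Aspa had an r of 0.723 and the lowest pair was Mog and Ermn, at 0.513, so the place of Mbp apart from Aspa depended on the normalization.

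**Figure D2:**
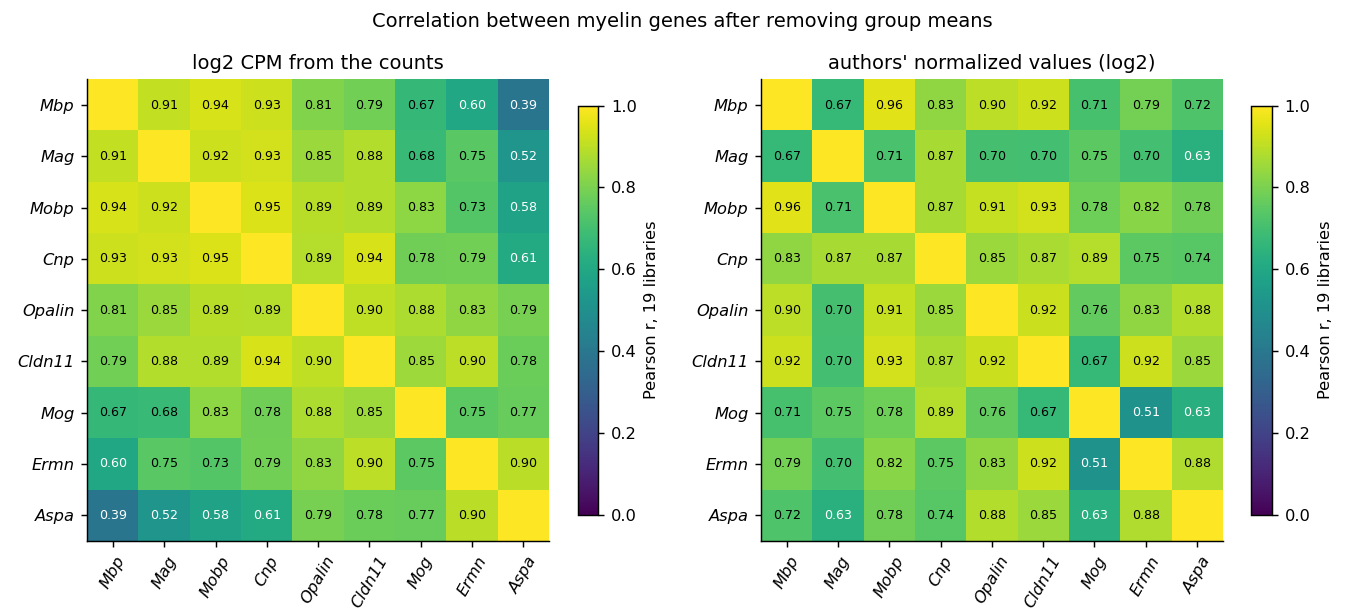
Pearson r between each pair of the 9 genes over 19 libraries after removing group means, from the counts (log2 CPM, left) and from the authors' normalized values (log2, right). Every cell is above 0, and the low corner between Mbp and Aspa on the left (0.39) is at 0.72 on the right.

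The difference between genotypes over both sexes was small for each of the 9 genes, and none passed the test. Log2 fold changes of knock-in over 5xFAD (edgeR quasi-likelihood test with sex in the model) were above 0 for 9 of 9 genes, between 0.13 (Mag and Aspa) and 0.26 (Cldn11), with a median of 0.19. Over all genes tested the median was -0.001, and 49.6% were above 0. Because the 9 transcripts moved together between animals, their common sign counts as far fewer than 9 separate results. At a Benjamini-Hochberg adjusted p under 0.05, 0 of 9 genes were called, where 0.022% of all genes were (4 of 18204). At an unadjusted p under 0.05 (edgeR) it was 1 of the 9 genes, Mog, beside 2166 of all 18204 genes. Mog averaged 49.1 ± 7.79 CPM with 5xFAD alone (SD, n = 10) and 58.0 ± 10.9 CPM with the knock-in (SD, n = 9), a log2 fold change of 0.24 (SE 0.11, 95% interval 0.008 to 0.47, edgeR adjusted p = 0.408). Cldn11 was at 171 ± 30.3 CPM against 143.6 ± 31.7 CPM (SD, n = 9 and 10), a log2 fold change of 0.26 (SE 0.13, edgeR adjusted p = 0.434). The interval for Cldn11 ran from -0.007 to 0.52, and that for Mbp, at 0.17, from -0.10 to 0.44. Exact two-sided permutations of genotype within sex gave p = 0.0775 for Mog and 0.0773 for Cldn11, and between 0.122 and 0.396 for the other 7 genes, before adjustment. For 0 of 9 genes were the libraries of the genotypes apart, where 0.00549% of all genes were.

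**Figure D3:**
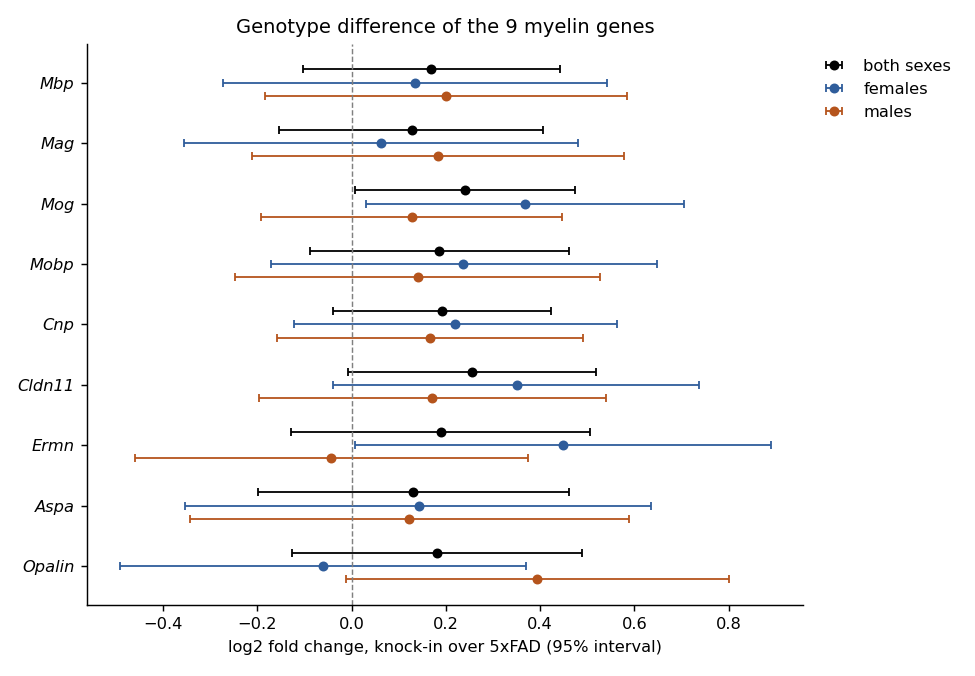
Log2 fold change of knock-in over 5xFAD for each of the 9 genes, with its 95% interval (edgeR), over both sexes (black), in females (blue) and in males (orange). Points for both sexes lie between 0.13 and 0.26, and Ermn and Opalin are the genes whose female and male points are farthest apart.

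In females the 9 genes again stayed under the threshold. The log2 fold change was above 0 for 8 of 9 genes, with a median of 0.22 beside 0.007 over all genes. In edgeR 2 of the 9 (Mog and Ermn) had an unadjusted p under 0.05, as did 4028 of all 18204 genes. After adjustment 0 of 9 were called, where 5.56% of all genes were. The 1013 calls behind that share became 0 without knock-in female 2, without knock-in female 4, or with the level of long noncoding RNA as a covariate. That level did not overlap between the female groups (mean log2 CPM 6.16 to 7.08 in knock-in, 7.999 to 8.38 in 5xFAD). Genotype and this covariate are hard to separate in females, so a loss of calls with it says little about the calls. Mog changed by 0.37 (SE 0.16, 95% interval 0.031 to 0.71, edgeR adjusted p = 0.183), from 47.6 ± 10.2 CPM in 5xFAD females (SD, n = 5) to 61.5 ± 7.51 CPM in knock-in females (SD, n = 4). Ermn was at 56.9 ± 19.5 and 77.6 ± 11.2 CPM in the same groups (SD, n = 5 and 4), a log2 fold change of 0.45 (SE 0.21, 95% interval 0.007 to 0.89, edgeR adjusted p = 0.218). Cldn11 was 0.35 (edgeR adjusted p = 0.281) and Opalin, alone below 0, was -0.061 (95% interval -0.49 to 0.37, edgeR adjusted p = 0.901). The animals of the genotypes overlapped for 9 of 9 genes, where 12.9% of all genes had groups apart.

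In males the log2 fold change was above 0 for 8 of 9 genes, with a median of 0.17 beside 0.010 over all genes. In edgeR 0 of 9 were called, as were 0.0% of all genes (0 of 18204, with 1187 at an unadjusted p under 0.05 and 19 called by DESeq2). None of the 9 had an unadjusted p under 0.05. Opalin was highest, at 0.39 (SE 0.20, 95% interval -0.012 to 0.80, edgeR adjusted p = 0.757), with 28.7 ± 7.57 CPM in knock-in males and 21.9 ± 3.98 CPM in 5xFAD males (SD, n = 5 each). Ermn was at -0.044 (95% interval -0.46 to 0.37, edgeR adjusted p = 0.980). Groups of males overlapped for 9 of 9 genes, where 1.02% of all genes had groups apart.

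Ermn and Opalin, both genes of late maturation, were the members whose genotype difference varied most between the sexes, in opposite directions. The interaction, female minus male log2 fold change, was 0.49 for Ermn (SE 0.29, edgeR adjusted p = 0.400) and -0.46 for Opalin (SE 0.29, edgeR adjusted p = 0.427). The other 7 lay between -0.12 and 0.24. Of the 9 genes 0 were called in edgeR, where 0.308% of all genes were. Females and males of the same genotype did not differ past the threshold either. In 5xFAD animals 0 of 9 genes were called (0.0385% of all genes), with log2 differences of female over male from -0.33 (Ermn) to 0.21 (Mag) and edgeR adjusted p from 0.545 to 0.988. In knock-in animals 0 of 9 were called (0.0494% of all genes), with differences from -0.31 (Opalin) to 0.16 (Ermn) and edgeR adjusted p from 0.547 to 0.999. None of the 9 had an unadjusted p under 0.05 in these 3 comparisons (edgeR). Over all 18204 genes, 3224 did for the interaction, 2023 for sex in 5xFAD and 2615 for sex in knock-in animals. The sexes' libraries overlapped for 9 of 9 genes in each genotype, where 2.77% of all genes in 5xFAD and 4.97% in knock-in animals were apart.

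The ratio of Ermn to Opalin, which cancels what the genes share in a library, was looked at after these values were seen and is given as a description. In 5xFAD females 1 to 5 the ratio of CPM was 1.67, 2.32, 2.73, 2.47 and 2.63, and in knock-in females it was 3.35, 3.77, 3.19 and 3.11. In 5xFAD males 6 to 10 it was 3.44, 3.13, 3.69, 3.07 and 3.17, and in knock-in males it was 2.002, 2.75, 2.17, 2.81 and 2.52. Knock-in females were all above 5xFAD females, and knock-in males were all below 5xFAD males. Group means were 2.36 ± 0.418 in 5xFAD females (SD, n = 5), 3.35 ± 0.297 in knock-in females (SD, n = 4), 3.30 ± 0.260 in 5xFAD males (SD, n = 5) and 2.45 ± 0.357 in knock-in males (SD, n = 5). Of the 36 pairs of genes, the genotypes were apart in 6 in females and in 2 in males, and this was the 1 pair apart in both sexes. The pairs share genes, so they are not 36 separate results. Taken singly, 12.9% of all genes were apart in females and 1.02% in males, and the share among ratios of other genes was not computed. On the authors' normalized values the ratio of Ermn to Opalin was 2.91 to 3.84 in knock-in females against 1.76 to 2.76 in 5xFAD females, still apart. In males it was 2.07 to 2.93 in knock-in against 2.80 to 3.63 in 5xFAD animals, which overlapped, and 0 of 36 pairs were apart in both sexes.

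With the mean log2 CPM of 14 other myelin membrane genes as a covariate, added after seeing the data, the interaction of Opalin was -0.60 (unadjusted p = 0.0022 and adjusted p = 0.117 in edgeR). That of Ermn was 0.35 (edgeR adjusted p = 0.200). In that model 0 of 9 genes were called in any comparison. Of all genes 0.0% were called for the interaction and 0.709% for genotype in females. The genotype difference of the 9 genes over both sexes then lay between -0.17 (Aspa) and 0.028 (Mog). The 9 genes share variation with the covariate, so this model describes what is left beyond a common myelin level.

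**Figure D4:**
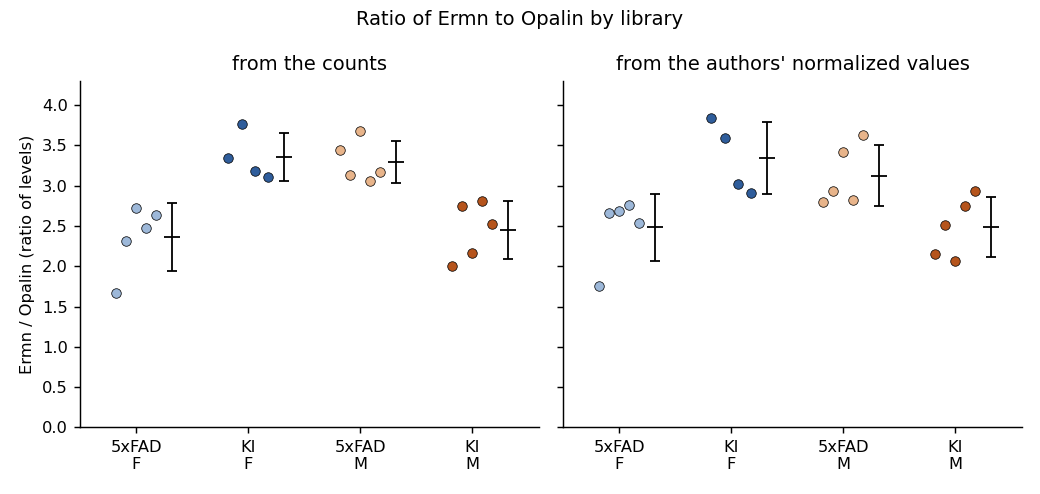
Ratio of the Ermn level to the Opalin level in each animal, with group mean ± SD, from the counts (left) and from the authors' normalized values (right), in 5xFAD (light) and knock-in (dark) females (F) and males (M). On the left the genotypes are apart in both sexes and in opposite directions, and on the right the males overlap.

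Genes of the rest of the oligodendrocyte lineage, in 8 lists by role, were mostly a little higher in knock-in animals, and none passed the test over both sexes. Of 100 listed genes tested outside the 9, 86 had a log2 fold change above 0, with a median of 0.17, where 49.6% of all genes were above 0. Many of them moved with the 9 between animals (median r 0.83 for the myelin membrane list, as described below). Their common signs, here and in the lists below, therefore count as far fewer separate results than genes. In edgeR 0 of the 100 were called, where 0.022% of all genes were. Whether the lists differ from the 9 genes or from each other was not tested. Among 14 proteins of the myelin membrane, 14 were above 0, with a median of 0.23. The lowest p values there belonged to the tetraspanin Cd9 (0.41, edgeR adjusted p = 0.185), Tmem125 (0.39, edgeR adjusted p = 0.328) and the proteolipid Mal (0.26, edgeR adjusted p = 0.417). Of 12 enzymes and carriers of myelin lipid synthesis 11 were above 0, with a median of 0.19. Among them the fatty acid elongase Elovl7 was at 0.56, the glycolipid transfer protein Gltp at 0.28 and the desaturase Scd2 at 0.21. Contacts between axon and glia formed the list nearest 0, with 8 of 12 above 0 and a median of 0.037, which included Nectin1 (-0.25), Hapln2 of the node of Ranvier (-0.14) and Omg (0.089).

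Regulators and stage markers lay close to the structural genes. Of 11 transcription factors of the lineage 9 were above 0 (median 0.12), and the lowest p values there belonged to Olig1 (0.29), Olig2 (0.33) and Nkx6-2 (0.24). Of 20 enzymes and cytoskeletal proteins of mature cells 18 were above 0 (median 0.20), with the actin-severing protein Gsn at 0.40, the iron carrier Trf at 0.33 and the chaperone Cryab at 0.31. Precursor genes had 10 of 12 above 0 (median 0.14), with the growth factor receptor Pdgfra at 0.24, Tmem100 at 0.30 and Cacng4 at 0.17. Newly formed cells had 10 of 11 above 0 (median 0.18), with Bmp4 at 0.48, Tns3 at 0.19 and the deacetylase Sirt2 at 0.18. Genes reported in disease-associated oligodendrocytes had the highest median, 0.34, with 8 of 10 above 0. In that list the tetraspanin Cd63 was at 0.40, the protease inhibitor Serpina3n at 0.37 and the complement gene C4b at 0.33, and astrocytes or microglia also express all 3. Among the genes named in these lists over both sexes, edgeR adjusted p lay between 0.165 (Gsn) and 0.808 (Omg).

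**Figure D5:**
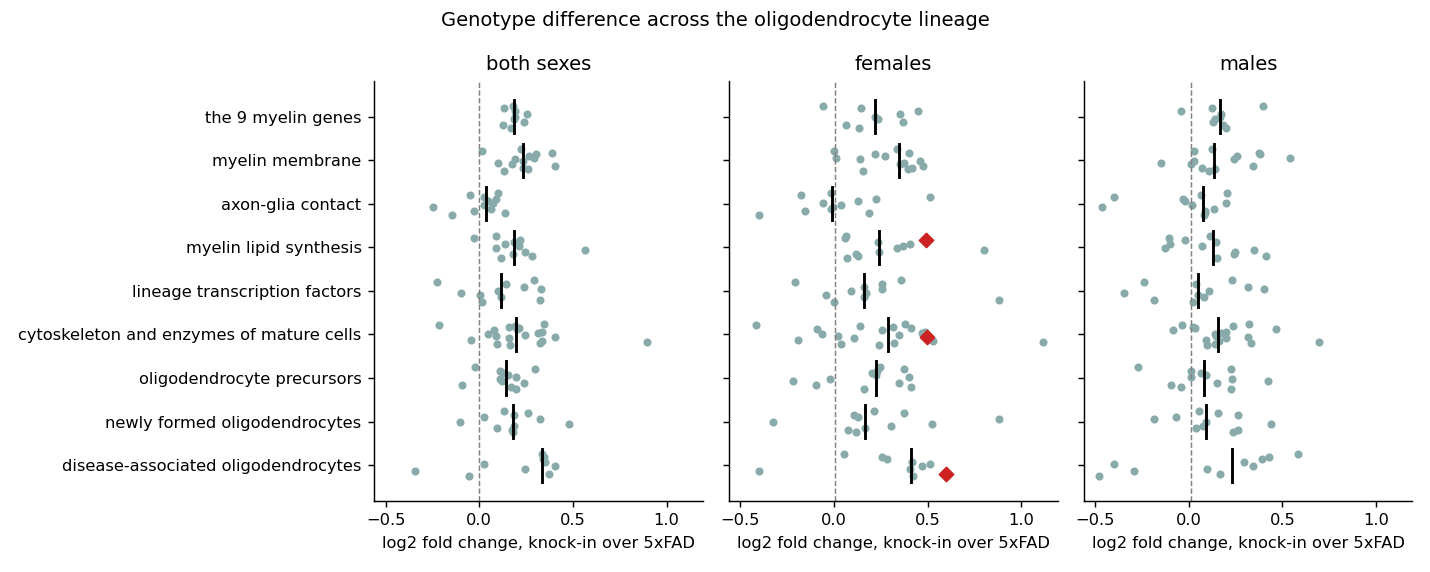
Log2 fold change of knock-in over 5xFAD for each gene of the 9 and of 8 lists of the oligodendrocyte lineage (points), with the list median (bar), over both sexes, in females and in males. Most points lie right of 0, and the 3 red diamonds in females are the genes past the threshold, Sgms1, Gsn and Serpina3n.

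In females 81 of the 100 lineage genes were above 0 (median 0.22). Past the threshold 3 rose and 0 fell, where 206 of all 18204 genes (1.13%) were called higher and 807 lower. Gsn was at 47.0, 76.8, 78.9, 62.3 and 53.8 CPM in 5xFAD females and at 95.1, 79.7, 89.4 and 95.1 CPM in knock-in females, a log2 fold change of 0.50 (SE 0.15, edgeR adjusted p = 0.0490). Every knock-in female was above every 5xFAD female for this gene, where 12.9% of all genes had the female groups apart in either direction. Serpina3n was at 48.6, 67.6, 65.1, 42.0 and 60.3 CPM against 73.9, 82.8, 99.96 and 86.1 CPM, a log2 fold change of 0.60 (SE 0.17, edgeR adjusted p = 0.0402). Sgms1, a sphingomyelin synthase, was at 33.5, 35.0, 40.2, 32.8 and 43.4 CPM against 48.2, 55.0, 62.2 and 42.3 CPM, a log2 fold change of 0.49 (SE 0.12, edgeR adjusted p = 0.0195). The genotypes were apart for Serpina3n, while knock-in female 5 was below 5xFAD female 5 for Sgms1. After removing group means, Pearson r with the mean log2 CPM of the myelin genes named at the start was -0.148 for Sgms1. That r was 0.434 for Serpina3n and 0.58 for Gsn. Mean log2 CPM of astrocyte markers was also higher in knock-in females (7.79 to 7.97) than in 5xFAD females (7.401 to 7.545). Which cells the 3 differences came from was not tested. With the noncoding RNA level as a covariate the log2 fold change was 0.27 for Gsn, 0.40 for Serpina3n and 0.16 for Sgms1, and edgeR adjusted p was 0.9999 for each. Because that level did not overlap between the female groups, this loss says little about the calls. Without single libraries the fold changes stayed between 0.39 and 0.62 for Gsn, 0.53 and 0.69 for Serpina3n and 0.42 and 0.60 for Sgms1, but no gene of the table was called in females once knock-in female 2, or 4, was left out. Without 5xFAD female 1 the edgeR adjusted p was 0.139 for Gsn, 0.111 for Serpina3n and 0.0560 for Sgms1. Serpina3n also lost its call without 5xFAD female 4 or knock-in female 5 (edgeR adjusted p = 0.0826 and 0.0722). Gsn lost it too without 5xFAD female 4 or 5, 5xFAD male 7 or 8, knock-in female 1 or 5, or knock-in male 8, with edgeR adjusted p from 0.0510 (5xFAD male 8) to 0.107 (knock-in female 5). In males 80 of the 100 were above 0 (median 0.12) and 0 were called.

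Genes were then ranked by how closely they followed the 9 from animal to animal. Likeness was Pearson r between log2 CPM of a gene and the mean log2 CPM of the 9, over 19 libraries after removing group means, and is given as a description. Outside every list, Prr18 (0.948), Galnt6 (0.907), the sterol hydroxylase Cyp27a1 (0.899), the netrin receptor Unc5b (0.894) and Gatm, an enzyme of creatine synthesis (0.876), were the 5 most alike. Prr18 ranged from 42.6 to 79.3 CPM in 5xFAD females and from 67.5 to 92.2 CPM in knock-in females, and from 51.7 to 84.9 CPM and 51.0 to 82.6 CPM in the males. The lowest values of r belonged to Zfp781 (-0.719), Btbd19 (-0.712), Sult2b1 (-0.692), Cntn5 (-0.689) and AB041806 (-0.661). Among listed genes the membrane proteins had a median r of 0.83, led by Mal at 0.938, and mature enzymes a median of 0.69. Transcription factors had a median of 0.56, with the maturation factor Nkx6-2 at 0.922. Precursor and newly formed cell genes had medians of 0.219 and 0.216, beside -0.003 over all genes tested.

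Depth was 17.28 to 25.2 M counts (M, mega) per library, with knock-in females at 19.72 to 25.2 and 5xFAD females at 17.82 to 19.31. Clu, the gene of the knock-in, ranged from 732 to 1364 CPM in knock-in animals and from 809 to 1159 CPM in 5xFAD animals (log2 fold change 0.13, edgeR adjusted p = 0.664), which does not check the allele because its sequence is not given in the labels. Levels of some marker lists are given beside the comparisons above, and no list was tested as a whole. Mean log2 CPM of 8 long noncoding RNAs lay between 6.16 and 7.08 in knock-in females and between 7.999 and 8.38 in 5xFAD females, and Mirg among them fell by 1.73 on the log2 scale (edgeR adjusted p = 0.0121). For these RNAs the males overlapped, at 7.114 to 8.495 in knock-in and 6.412 to 8.249 in 5xFAD animals. Summed CPM of 8 choroid plexus markers lay between 3434 and 11380 in knock-in females, between 616 and 5168 in 5xFAD females, between 34.8 and 3355 in knock-in males and between 61.2 and 3446 in 5xFAD males. Mean log2 CPM of 8 astrocyte markers lay between 7.79 and 7.97 in knock-in females and between 7.40 and 7.55 in 5xFAD females. For astrocyte markers the males overlapped, at 7.551 to 7.833 in knock-in and 7.539 to 7.713 in 5xFAD animals. Mean log2 CPM of 8 microglia markers lay between 6.41 and 6.96 in knock-in females and between 6.16 and 6.56 in 5xFAD females. In males it lay between 6.28 and 6.80 in knock-in and between 5.78 and 6.29 in 5xFAD animals. The part of these in the differences of the 9 genes was not tested beyond the covariate for noncoding RNA, which is hard to separate from genotype in females. Of 4 Schwann cell markers 2 passed the filter, with a summed level of 5.40 to 19.3 CPM over all libraries, against 2315 to 5420 CPM for the 9 genes.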

How the data were processed

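Hippocampal RNA of 19 mice, 1 library each, was grouped by the genotype and sex in the labels. Per the labels' protocols, animals were perfused with saline, the tissue was frozen and pulverised, RNA was treated with DNase, samples with an integrity number of at least 7 were kept, and paired reads came from NovaSeq and HiSeq instruments. The labels state neither which library ran on which instrument nor strandedness, so reads of overlapping opposite genes may be mixed. FastQC, Salmon, DESeq2, Seurat and build mm39 are named in the submitters' processing notes, without versions. The authors deposited estimated counts per gene, as whole numbers. The authors also deposited a normalized signal, scaled by gene and library, used here only as an alternative (log2 of value + 1, limma). A variance-stabilised table was not used. Symbols were found for 96.9% of gene IDs.

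Counts were tested with edgeR 4.0.16 (R 4.3.3; TMM, filterByExpr with a minimum count of 10, robust quasi-likelihood fit of 4 groups), and p values were adjusted by Benjamini-Hochberg over 18204 genes, with a threshold of 0.05. The scripts were tested on simulated data. Log2 CPM used a prior count of 2. Permutation p values of correlations used 100000 resamples, of which 1e-05 is the smallest possible. Exact tests enumerated 31752 arrangements of genotype within sex. Alternatives were DESeq2 1.42.0, limma-voom (limma 3.58.1), other scalings and filters, a noncoding RNA covariate, a replicate block and leaving out each library. The model with a myelin membrane covariate and the ratio on normalized values were added after seeing the data.

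The 9 genes and all lists were chosen with earlier results of these data known. Named genes follow a rule: the 9 genes, the 3 lowest p values of each lineage list over both sexes, up to 3 genes of a list past the threshold elsewhere, the 5 most and 5 least alike genes outside the lists, and the noncoding RNA with the lowest p. Title numbers recur in both genotypes. Over 9 same-numbered pairs the correlation of deviations ran from -0.355 to 0.238 and was over 0.1 in 2, so the numbers were not taken to pair animals. Promoter sequences and lengths came from RefSeq (GRCm38.p6) and GENCODE M21.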

Additional observations from a re-analysis of the deposited data

Results flagged for a closer look

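The ratio of Ermn to Opalin moved in opposite directions in the sexes. On the log2 scale, knock-in minus 5xFAD was 0.521 in females, where every knock-in animal was above every 5xFAD animal, and -0.438 in males, where every knock-in animal was below every 5xFAD animal. The difference between the sexes in this ratio was not tested, because the pair was chosen from 36 after its values were seen. Of these 36 pairs, 6 were apart in females and 2 in males, and the share among ratios of other genes was not computed. Taken singly, 12.9% of all genes were apart in females and 1.02% in males. On the authors' normalized values the males overlapped. In 36 sets of values, the 9 genes in each of 4 groups, no library lay far enough from the rest of its group to be listed, where chance alone would list about 1 in 20.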

How the results depend on the processing

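None of the 9 genes was called in any of the 6 comparisons under any alternative run, and their lowest adjusted p in edgeR, DESeq2 or limma was 0.161 for genotype over both sexes, 0.0740 in females, 0.620 in males, 0.117 for the interaction, 0.353 for sex in 5xFAD and 0.174 for sex in knock-in animals. Counting error was at most 7.58% (Aspa, at its lowest count). Totals over all genes were less stable. For genotype over both sexes the 4 calls became 1 with the myelin covariate, 1 on the authors' normalized values, 106 with DESeq2, 1 with library size only, 2 with limma-voom, 2 with the noncoding covariate and 1 to 127 when leaving out a library (127 without 5xFAD male 10). In females the 1013 calls became 129 with the myelin covariate, 1810 with DESeq2, 0 with the noncoding covariate (edgeR) and 0 to 1334 when leaving out a library (0 without knock-in female 2 or 4). The noncoding level did not overlap between the female genotypes, so that covariate and genotype are hard to separate there. In males the 0 calls became 19 with DESeq2, 1 with library size only and 0 to 2 without a library. For the interaction the 56 calls became 0 with the myelin covariate, the normalized values, DESeq2 size factors, limma-voom, no filter or the noncoding covariate, 766 with DESeq2, 401 with library size only and 0 to 489 without a library. The 7 calls for sex in 5xFAD became 47 with DESeq2, and the 9 in knock-in animals became 17 on normalized values, 510 with DESeq2 and 8 to 340 without a library (340 without knock-in male 7). Library size only moved the median of all genes to -0.15 in the interaction. The cause of these shifts was not tested.

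With the title number as a replicate block, which does not pair animals by design, genotype over both sexes had 0 calls and females 672, and in 2 of 9 pairs a library was most like its own number. Opalin in females was 0.041 with the block, where it was -0.061 without. That changed no call among the 9 genes, and Gsn (0.59), Serpina3n (0.65) and Sgms1 (0.51) lost theirs in females, as they did under 14, 9 and 6 of 29 alternatives in all. With DESeq2 or without 5xFAD male 10, Gsn was called over both sexes (adjusted p = 0.0364 by DESeq2 and 0.0421 by edgeR).

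Changes of sign occurred among differences that had not passed the threshold. With the myelin covariate, genotype over both sexes was -0.073 for Mag, -0.030 for Mobp, -0.10 for Ermn, -0.17 for Aspa, -0.055 for Opalin and -0.003 for Omg. In females it was -0.095 for Mbp, -0.21 for Mag, -0.043 for Mobp, -0.033 for Cnp and -0.24 for Aspa, and in males -0.030 for Mog, -0.020 for Mobp, -0.015 for Cldn11 and -0.11 for Aspa. Under it the interaction was -0.024 for Mobp, -0.062 for Cnp and -0.13 for Aspa, and sex in 5xFAD was 0.014 for Cldn11. On the authors' normalized values the interaction was 0.10 for Mbp, 0.24 for Mag and -0.10 for Aspa, and sex in 5xFAD was -0.047 for Mbp, -0.068 for Mag, -0.061 for Mobp and -0.11 for Cnp. There too, sex in knock-in animals was 0.054 for Mbp, genotype in males 0.016 for Ermn and genotype in females 0.00 for Opalin. Library size only gave -0.037 for Mag in females, -0.033 (Mobp), -0.076 (Cnp) and -0.12 (Aspa) for the interaction and 0.039 for Cldn11 in 5xFAD sexes. The noncoding covariate gave -0.069 for the Cnp interaction, 0.061 for Aspa by sex in knock-in animals, 0.016 for Opalin in females and 0.029 for Hapln2 over both sexes. For Mbp, sex in knock-in animals was 0.017 with DESeq2, 0.017 with DESeq2 size factors, 0.033 without a filter and 0.027 with a stricter one, and limma-voom gave -0.023 for Mobp by sex in 5xFAD.

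Leaving out each library in turn, genotype ranged from -0.059 to 0.20 for Mag and from -0.16 to 0.071 for Opalin in females, and from -0.15 to 0.034 for Ermn and -0.044 to 0.29 for Aspa in males. The interaction ranged from -0.20 to 0.040 for Mbp, -0.24 to 0.021 for Mag, -0.004 to 0.22 for Mobp, -0.039 to 0.18 for Cnp and -0.14 to 0.21 for Aspa. Sex in 5xFAD ranged from -0.032 to 0.20 for Mbp, -0.19 to 0.012 for Mog, -0.093 to 0.14 for Mobp, -0.027 to 0.16 for Cnp and -0.16 to 0.062 for Cldn11. Sex in knock-in animals ranged from -0.14 to 0.097 for Mbp, -0.037 to 0.18 for Mag and -0.25 to 0.036 for Aspa.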

Other observations

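Levels of other cell type markers are given for the libraries that stood out. Ranks were taken over all 19 libraries, so they include differences between groups. By these ranks astrocyte markers were low in 5xFAD female 5 and high in knock-in female 1 and knock-in male 8. Mean log2 CPM of those markers was higher in every knock-in female (7.79 to 7.97) than in any 5xFAD animal (7.40 to 7.71). Other lists were low or high with the 9 genes in some of these 3 libraries only. In 5xFAD female 5, the lowest library for all 9, the mean level of 8 astrocyte markers was at rank 2 of 19 from the lowest, that of 8 neuron markers at rank 6, that of 8 microglia markers at rank 6 and that of 8 choroid plexus markers at rank 11. In knock-in female 1, the highest for 6 of the 9, ependymal markers were at rank 19, striatal markers at rank 18, choroid plexus markers at rank 17, neuron and astrocyte markers at rank 15 and microglia markers at rank 10. In knock-in male 8, the highest for Mog and Opalin, choroid plexus and ependymal markers were at rank 1, the lowest of 19, with microglia markers at rank 18, astrocyte markers at rank 16 and neuron markers at rank 10.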
